A study of Mus musculus with 4 samples.

Results

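Deaf1 ChIP-seq signal deep inside genes was described from 3676 regions, 16.1% (exact interval 15.6% to 16.5%) of the 22880 regions in which peaks of both replicates overlapped by at least 1 bp. A region's position was the mean of the highest-fold summits of the 2 replicates. It was counted here when that position lay inside the span of a protein-coding gene and more than 5 kb from the end of any gene span, coding or noncoding. Replicate 1 and replicate 2 were both Deaf1 ChIP from C2C12, a mouse myoblast line that fuses into myotubes in culture, crosslinked with 1% formaldehyde. The labels name no genotype, treatment or time of differentiation. The labels call the cells myocytes, the series text says that C2C12 cells were differentiated, and peak lists hold no expression with which to check either. The 2 input samples shared the cell line and entered no comparison. Nothing in the labels says that the replicates came from separate cultures, and with 1 condition no comparison between biological states is possible.

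Deaf1 is a transcription factor with a SAND domain, which binds DNA, and a MYND domain, which contacts other proteins. Its known binding sites hold TTCG half-sites, and each of these contains a CpG pair. Genes often have more than 1 promoter, and a start used by a shorter or tissue-specific transcript can lie far inside the span of the whole gene. The inside of a gene also holds enhancers, so a region there may or may not mark a start of transcription.

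Many of the strongest deep regions lay on starts of transcription that RefSeq places inside the gene. Of the 3570 regions on chromosomes with listed starts, 502 (14.1%, exact interval 12.9% to 15.2%) lay within 1 kb of one, in each case a start of a gene around the region. Among the first 100 such regions by the sum of their fold ranks it was 65, and among the first 15 it was 12. The 1 kb around listed starts made up 0.452% of the deep sequence and held 147 regions per Mb, against 4.08 per Mb in the rest. Gene spans also take in predicted transcript models. For 247 of the 502 regions the gene had no listed start within 1 kb of either span end. The other 255 lay in genes with a further listed start at a span end.

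The sequences just before 6 inner starts, 5 with a Deaf1 region and 1 without, are shown as examples of the windows in which CpG pairs were counted. Each is the 250 bases upstream of the start, 5′ to 3′ along the transcript, from RefSeq (GRCm38.p6, the assembly of mm10), with CpG pairs in capitals. The first 4 belong to the highest-ranked regions with a start within 500 bp, and the last 2 to inner starts of the dystrophin gene Dmd. The Dmd pair was chosen after its values were seen.
Cacnb3, chr15:98634517-98634766, plus strand: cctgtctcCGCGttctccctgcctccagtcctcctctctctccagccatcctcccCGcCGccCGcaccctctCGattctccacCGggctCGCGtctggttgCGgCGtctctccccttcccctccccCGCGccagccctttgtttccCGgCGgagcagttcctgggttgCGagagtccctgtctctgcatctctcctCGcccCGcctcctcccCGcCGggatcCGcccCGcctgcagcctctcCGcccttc
Enah, chr1:182019981-182020230, minus strand: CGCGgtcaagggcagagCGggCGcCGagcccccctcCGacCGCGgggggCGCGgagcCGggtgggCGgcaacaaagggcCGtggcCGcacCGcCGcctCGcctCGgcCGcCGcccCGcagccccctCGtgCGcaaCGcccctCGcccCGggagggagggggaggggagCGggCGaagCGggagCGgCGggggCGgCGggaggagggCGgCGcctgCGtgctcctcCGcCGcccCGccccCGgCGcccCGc
Csnk1e, chr15:79441819-79442068, minus strand: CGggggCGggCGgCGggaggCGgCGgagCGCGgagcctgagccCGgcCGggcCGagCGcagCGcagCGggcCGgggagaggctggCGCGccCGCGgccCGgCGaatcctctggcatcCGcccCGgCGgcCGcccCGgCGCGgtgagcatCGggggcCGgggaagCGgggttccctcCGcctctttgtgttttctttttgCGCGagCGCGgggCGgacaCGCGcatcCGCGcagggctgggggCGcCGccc
Plekhg5, chr4:152086592-152086841, plus strand: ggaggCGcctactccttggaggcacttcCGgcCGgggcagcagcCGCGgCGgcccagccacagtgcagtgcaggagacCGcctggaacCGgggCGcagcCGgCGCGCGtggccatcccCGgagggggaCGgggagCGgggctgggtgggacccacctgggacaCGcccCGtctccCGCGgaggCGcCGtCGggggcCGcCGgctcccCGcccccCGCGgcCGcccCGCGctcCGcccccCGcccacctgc
Dmd with a region, chrX:85048045-85048294, plus strand: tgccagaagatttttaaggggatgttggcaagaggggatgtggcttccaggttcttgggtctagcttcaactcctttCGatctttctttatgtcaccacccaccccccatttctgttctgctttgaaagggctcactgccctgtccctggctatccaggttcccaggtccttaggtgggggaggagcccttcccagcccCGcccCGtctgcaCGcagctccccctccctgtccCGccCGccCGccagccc
Dmd without a region, chrX:82948620-82948869, plus strand: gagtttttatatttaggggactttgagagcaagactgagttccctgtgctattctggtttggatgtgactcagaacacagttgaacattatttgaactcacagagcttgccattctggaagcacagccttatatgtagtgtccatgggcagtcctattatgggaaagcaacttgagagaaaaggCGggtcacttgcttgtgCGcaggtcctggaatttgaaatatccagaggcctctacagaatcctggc
The first 4 hold 23, 42, 43 and 33 CpG pairs. The Dmd start with a Deaf1 region holds 7, and the Dmd start without one holds 2. TTCG, read on either strand, occurs 1 time in Enah, Csnk1e and the Dmd start with a region, and not in the other 3.

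Cacnb3, which encodes a beta subunit of voltage-gated calcium channels, held the strongest deep region. It ran on chromosome 15 from 98634128 to 98635470, at 6415 bp from any gene end. Its fold over the local background was 34.2 in replicate 1 and 39.8 in replicate 2. The fold rests on summit pileups of 106 and 104 fragments, whose exact Poisson intervals put it at 28.0 to 41.3 and 32.6 to 48.2 (counting error only). Its position was 84 bp downstream of the listed start.

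The regions ranked next lay in genes of varied function. Enah, an actin regulator of cell migration, had folds of 27.8 and 35.7 on chromosome 1 (182019318 to 182020744), 109 bp from its listed start. Csnk1e, a casein kinase of the circadian clock, had 33.8 and 31.3 on chromosome 15 (79441393 to 79442341). Plekhg5, an exchange factor gene, had 28.7 and 31.9 on chromosome 4 (152086395 to 152087219). Stat5b encodes a transcription factor of growth hormone and cytokine signalling. Its region on chromosome 11 (100849888 to 100851098) had folds of 27.5 and 34.9, 103 bp from the listed start. Adcy9, an adenylyl cyclase gene, had 27.0 and 38.7 on chromosome 16 (4418810 to 4420804), and the zinc finger gene Zfp800 had 28.7 and 31.6. Csk encodes the kinase that holds Src-family kinases inactive, and its region had folds of 26.8 and 31.5. Tdrd7, a gene of RNA granules, had the same pair of folds as Csk, 26.8 and 31.5, and Rgmb, a co-receptor of bone morphogenetic proteins, had 27.5 and 29.96. Pakap, an anchoring protein of protein kinase A, had 27.1 and 33.4, and Epb41l3, a membrane skeleton gene, had 27.8 and 30.3. All of these regions lay within 500 bp of a listed start of their own gene, the farthest being Rgmb at 445 bp.

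The remaining 3 of the first 15 regions had no listed start within 1 kb. Ston2, an adaptor of endocytosis, had folds of 30.3 and 29.2 at 7383 bp from its start on chromosome 12 (91778471 to 91779456). Zfp385a, a zinc finger gene, had 27.5 and 31.1, and Arhgap23, a GTPase-activating protein gene, had 28.3 and 29.6. The listed start nearest to the Arhgap23 region was that of another gene, Gpr179, at 63393 bp, so Arhgap23 may have none listed. In all 15 regions the exact Poisson intervals of the 2 replicates' folds overlapped.

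Regions at inner starts had higher median folds and were wider than the other deep regions, with medians near those of regions at gene ends. In replicate 1 the median fold was 16.0 at inner starts (quartiles 11.2 and 21.4), 9.15 at the 3068 deep regions farther from a start (7.02 and 11.8) and 15.6 at the 11273 regions within 1 kb of a protein-coding gene end (11.2 and 20.6). In replicate 2 the same medians were 14.03, 6.001 and 13.9. Median widths were 679.5 bp, 347 bp and 678 bp. The quartiles at inner starts overlapped widely with those at gene ends in replicate 1, and only narrowly with those of deep regions farther away. No test was made, since regions of a library are not replicates and the study has a single condition. Shared regions outside coding genes and more than 5 kb from any gene end, 1199 in number, had medians of 8.94 and 6.45, near those of the deep regions away from starts.

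**Figure D1:**
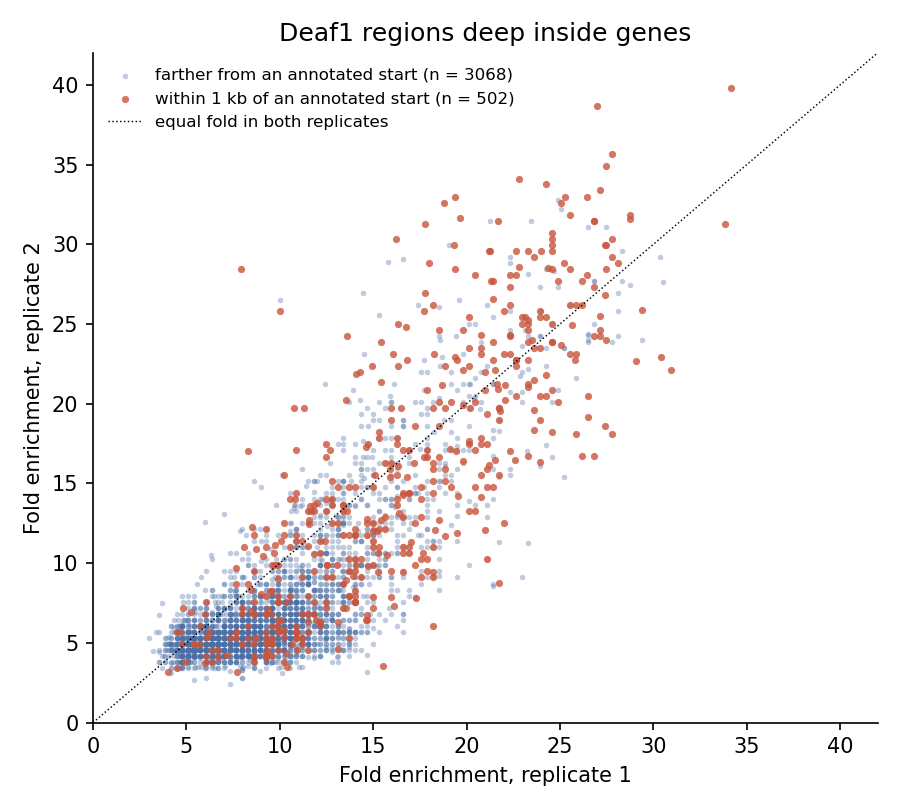
Fold enrichment of each deep region in replicate 1 (horizontal) and replicate 2 (vertical); red points lie within 1 kb of an annotated start, blue points farther away. Red points (medians 16.0 and 14.03) spread from low folds to the upper right. Most blue points (medians 9.15 and 6.001) lie low and below the dotted line of equal folds. With both folds at 10 or more there are 326 red and 501 blue points.

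A fold of 10 or more in both replicates was found at 852 deep regions (23.2%), against 46.1% of all shared regions. A fold of 20 or more in both was found at 194 (5.28%), against 12.9% of all shared regions. The share of deep regions lying at an inner start was higher in each higher class of the lower of the 2 folds. It was 3.99% of 1027 regions under a fold of 5, 7.87% of 1716 from 5 to 10, and 26.2% of 427 from 10 to 15. It was 44.8% of 212 from 15 to 20, 61.5% of 143 from 20 to 25, and 68.9% of 45 at 25 or more (exact interval 53.4% to 81.8%). The weakest deep region by the lower fold lay in Acvrl1, an activin-like receptor gene, with folds of 7.35 and 2.44 and a replicate 2 pileup of 12 fragments. The exact intervals of its 2 folds did not overlap.

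Across all 3676 deep regions the fold ran from 2.996 to 34.2 in replicate 1 (median 9.58) and from 2.44 to 39.8 in replicate 2 (median 6.07). The summit pileup had medians of 30 and 16 fragments in the 2 replicates, so a typical deep region rests on few. A −log10 q of 5 or more in both lists was found at 3010. The fold was higher in replicate 1 at 79.8% of all 3676, and at 61.2% of those at inner starts. Across the regions, which share libraries and are no independent points, the folds of the replicates correlated with a Spearman coefficient of 0.725, and the highest summits lay within 100 bp of each other in 85.4%. With all peaks of replicate 1 alone, without replicate 2, deep positions made up 29.4% of 65582 regions, their median fold was 5.43 and 4.47% lay at an inner start. Replicate 2 alone, without replicate 1, gave 16.9%, 5.69 and 12.7%.

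At inner and outer starts alike, the share with a Deaf1 region was higher in each class of higher CpG content. Of 1797 starts lying deep inside their own coding gene, 556 (30.9%) had a shared region within 1 kb, against 9224 of 16995 starts near a span end (54.3%). The windows of 300 bases (250 before the start, 50 after) held a median of 6 and 15 CpG pairs. With 0 to 4 pairs the share was 3.07% of 685 inner starts and 3.26% of 4605 outer starts. With 5 to 9 pairs it was 12.9% and 23.3%, and with 10 to 14 pairs it was 45.9% and 60.3%, in both cases with exact intervals that did not overlap. With 15 to 19 pairs it was 76.3% and 77.4%, and with 20 to 24 pairs 94.3% and 86.3%. With 25 pairs or more it was 96.8% of 222 inner starts (exact interval 93.6% to 98.7%) and 94.8% of 4487 outer starts (94.1% to 95.4%).

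**Figure D2:**
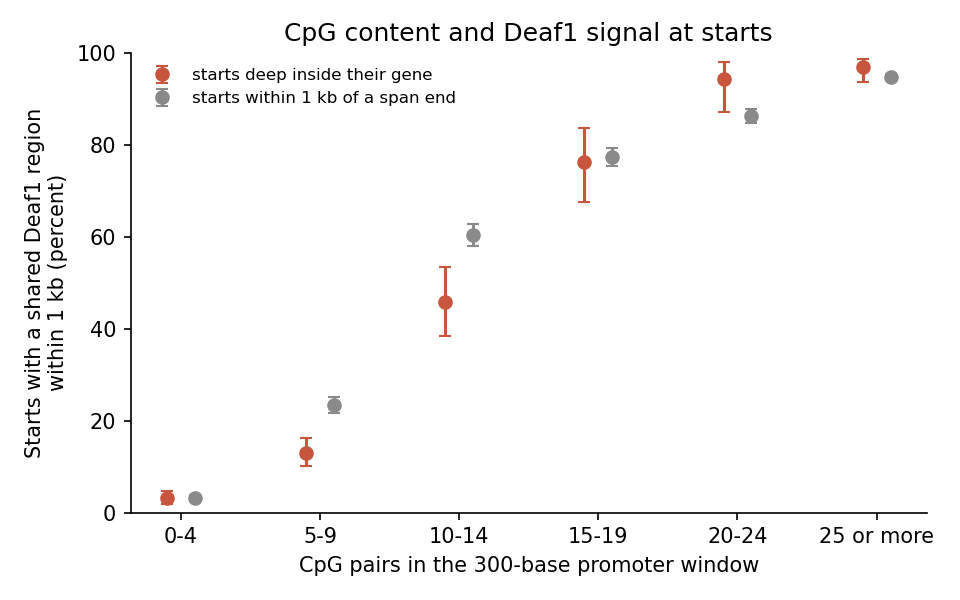
Percent of annotated starts with a shared Deaf1 region within 1 kb (vertical) by the number of CpG pairs in the 300-base window (horizontal), for inner starts (red) and starts near a span end (grey), with exact 95% intervals. Both sets run from about 3% (3.07% and 3.26%) in the poorest windows to 96.8% and 94.8% in the richest.

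The fold at inner starts with a region also differed between CpG classes. Its medians were 10.7 and 6.83 in the 21 starts with 0 to 4 pairs, 15.01 and 11.0 in the 83 with 10 to 14 pairs, and 20.1 and 21.2 in the 215 with 25 or more. Starts of the same gene and neighbouring starts can share a region, so these are not independent points.

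The TTCG half-site was more frequent at inner starts with a region over all of them, but less frequent there in most classes of CpG content. Either strand of the window held TTCG in 52.2% of inner starts with a region and 36.9% of those without, beside 44.9% of all 32619 windows in the promoter table. Within classes of CpG content the order was mixed. With 10 to 14 CpG pairs TTCG stood in 49.4% of the 83 starts with a region and 71.4% of the 98 without, and with 15 to 19 pairs in 61.1% and 57.1%. At outer starts with 25 or more pairs it stood in 65.5% and 74.0%. A match to these letters is a description of the window and not a binding site.

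Other promoter motifs, searched on both strands, were spread unevenly between inner starts with and without a region. GGGCGG, the GC box, stood in 70.9% and 14.2%, and CCGGAAG, a core of ETS factor sites, in 8.09% and 2.50%. TATAAA stood in 3.24% of inner starts with a region and 16.4% of those without. The shares in all windows were 35.9%, 8.92% and 13.7%. CAGCTG, an E-box of the kind bound by myogenic factors, stood in 16.2% and 21.5%, beside 16.4% of all windows. None of these motifs overlaps TTCG in its own letters. GGGCGG itself holds a CpG pair, as does CCGGAAG.

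Deaf1 regions at inner starts sat slightly downstream of the start, as at gene ends. The median position was 98 bp downstream (quartiles from −21 to 204 bp), 71.9% lay downstream, and 71.5% lay within 250 bp of the start. At starts near a span end the median was 103 bp and 70.8% lay downstream. The fullest step of 200 bp, from the start to 200 bp downstream, held 232 of the 502 regions (46.2%).

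**Figure D3:**
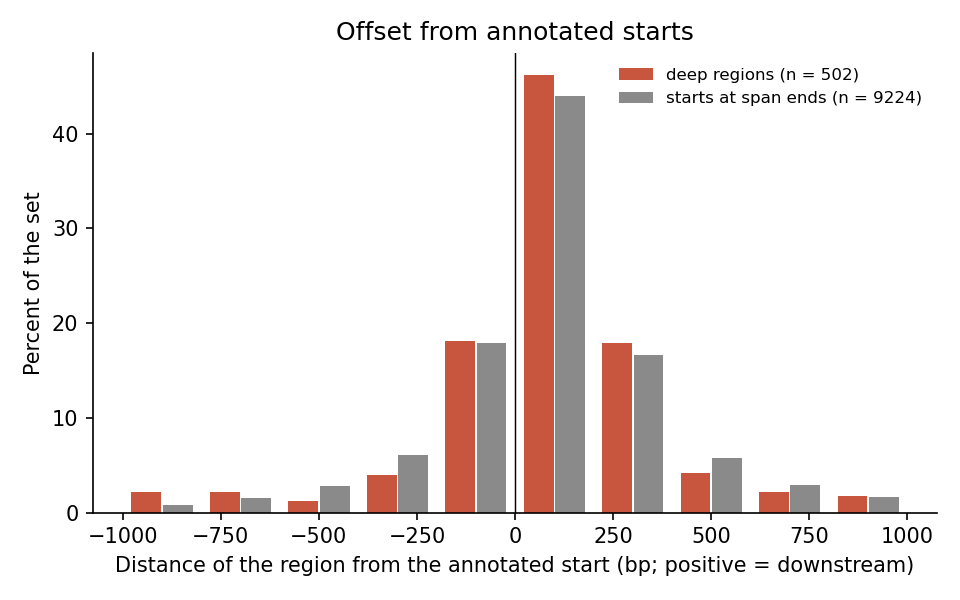
Distance of the region from the annotated start in steps of 200 bp (horizontal; positive is downstream), as percent of each set (vertical), for deep regions at inner starts (red) and starts near a span end (grey). Both sets peak just downstream of the start, at 46.2% and 44.0%.

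Genes known for promoters inside their span gave examples on both sides. The list of 48 such genes was drawn up with earlier results of these data known, including the region in Cacnb3. Of its genes 34 held a deep region, against 16.3% of the 13443 coding genes with deep sequence. The listed genes are long, with a median span of 184 kb, and among all genes over 250 kb the share was 32.4%. Of the 49 inner starts listed for these genes, 21 had a region, with a median of 29 CpG pairs, and the other 28 had a median of 5.5.

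In the list, Dnmt3a, a DNA methyltransferase gene with a known short form, had folds of 22.3 and 26.2 at an inner start on chromosome 12 (3806238 to 3808448). Dst, a giant linker of the cytoskeleton, had 20.8 and 24.3 at a position 53 bp from an inner start. Runx1, a transcription factor gene with a known second promoter, had 26.8 and 16.7, and Shank3, a synaptic scaffold gene, had 21.4 and 23.9. Speg, a kinase gene of striated muscle, had 3 inner starts with regions, at folds of 18.7 and 21.2, 14.05 and 11.8, and 15.5 and 3.53. The last pair shows the replicates far apart at a single site. The lipid regulator gene Srebf1 had 20.8 and 14.1.

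At 20 of the 49 inner starts neither replicate had a peak within 5 kb. These included the only inner start of Utrn, the gene of utrophin, a relative of dystrophin, and that of Mylk, the myosin light chain kinase gene, with 2 and 4 CpG pairs. Dmd showed both cases in a single gene. The start at 85048295 had folds of 9.57 and 8.26, and the start at 82948870 had no peak of either list within 5 kb.

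Deep regions thinned out with distance from gene ends, while their fold stayed much the same. Distance was not separated from gene length, since positions far from any end exist only in long genes. Over all coding genes density was 16.6 per Mb from 10 to 30 kb of span and 1.39 per Mb over 250 kb. The part of gene length was not tested. From 5 to 10 kb from the nearest end there were 9.74 regions per Mb, from 10 to 20 kb 5.997, from 20 to 50 kb 3.67, from 50 to 100 kb 1.71, and beyond 100 kb 0.643. The median folds in the nearest of these classes were 9.90 and 6.45 and in the farthest, with 62 regions, 8.78 and 6.45. Far intergenic sequence held 0.98 regions per Mb. The median distance was 12218.5 bp and the largest 420610 bp.

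**Figure D4:**
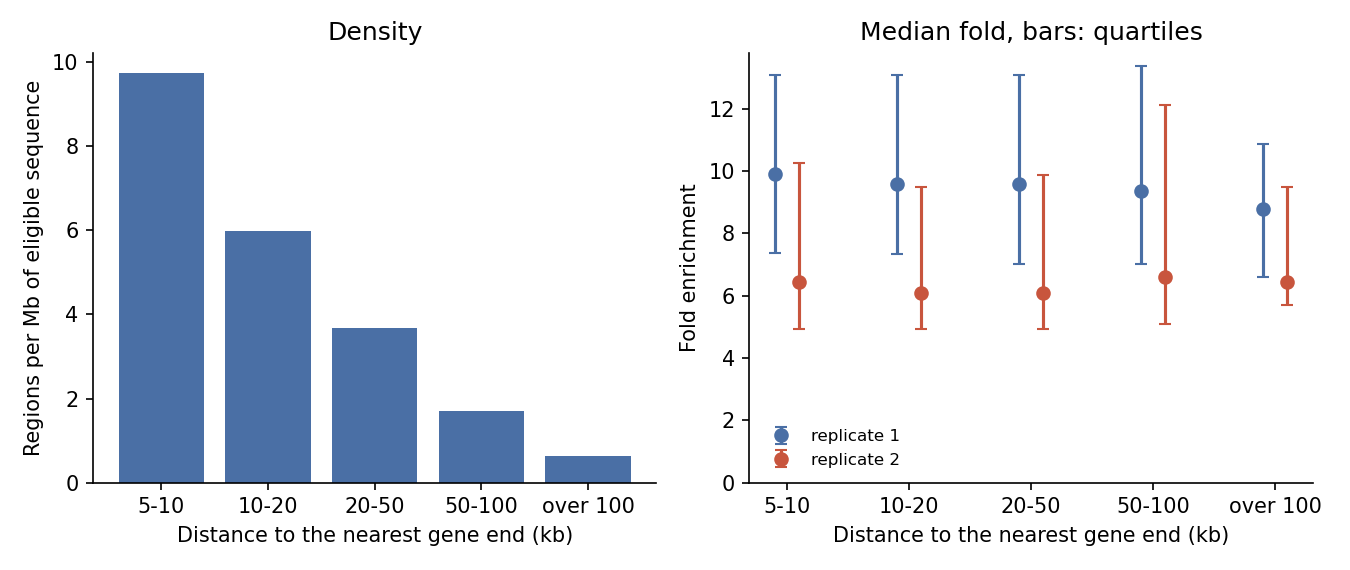
Left, deep regions per Mb of eligible sequence by distance to the nearest gene end; right, median fold in each replicate with quartiles as bars. Density runs from 9.74 to 0.643 per Mb, while the medians stay between 8.78 and 9.90 in replicate 1 and between 6.07 and 6.60 in replicate 2.

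The regions farthest from any gene end lay in very long genes. Rbfox1, an RNA splicing factor gene, had folds of 14.4 and 15.2 at 420610 bp from an end. Dab1, an adaptor of the reelin pathway, had 9.58 and 9.86, and Nckap5 had 10.9 and 5.69. The regions in Dab1 and Nckap5 lay 32 bp and 182 bp from an inner start. Lsamp, a neural adhesion gene, had 5.43 and 4.93 at 473 bp from an inner start, and Adgrl3, an adhesion receptor gene, had 12.2 and 10.6.

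Close to the limit of 5 kb, the nearest regions inside it lay in Mier1 at 5002 bp, with folds of 14.1 and 21.9, and in Cbx6 and Npcd at 5005 bp, with 17.9 and 17.1. Just outside it, Amer2 at 4999 bp had 11.8 and 11.4, and Plekhg4 at 4998 bp had 18.5 and 12.5. The widest deep region, 4084 bp on chromosome 15 (76178398 to 76182481), lay in Plec, which encodes the cytoskeletal linker plectin, with folds of 17.9 and 19.3. Next came Pdgfa, a growth factor gene, at 4072 bp with 26.2 and 26.2, and Ubtf, a factor of ribosomal RNA transcription, at 3447 bp with 27.5 and 28.4.

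The 3676 regions lay in 2190 genes, of which 1482 held a single region and 328 held 3 or more. Gse1, a partner of histone deacetylase complexes, held 26 regions over a span of 352883 bp, with folds of 3.83 to 20.2 in replicate 1 and 2.82 to 21.2 in replicate 2. Nfix, a transcription factor gene of fetal muscle, held 16 with medians of 9.13 and 5.69, and the corepressor gene Bcor held 15 with 12.8 and 9.10. The zinc finger gene Casz1 held 14 and the chromatin gene Bahcc1 held 12. Kmt2d, a histone H3 lysine methyltransferase gene, held 11, as did the calcium channel gene Cacna1a and the phosphatase gene Ptprs. Ahdc1, Arhgap23, Crocc, Macrod1, Plec and Tnrc18 held 10 each. In Gse1, Bcor, Casz1, Bahcc1 and Kmt2d no region lay at a listed inner start, and in Nfix 2 did. In Cacna1a none did either, but the listed starts gave this gene no strand, so it may have no start listed.

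**Figure D5:**
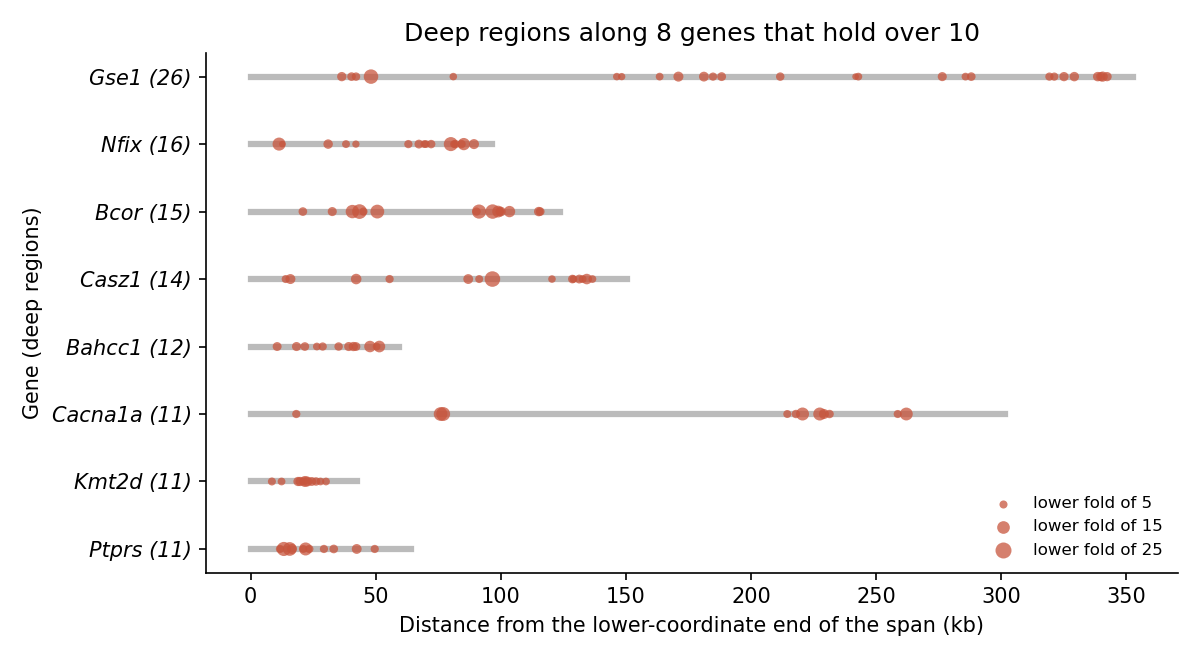
Deep regions (red) along the spans (grey) of 8 genes with more than 10 regions, as distance from the lower-coordinate end; dot size follows the lower of the 2 folds. Regions stand along most of the span in Gse1 (26 regions) and close together in Kmt2d, with 11 in a span of 42409 bp.

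Among genes with 5 or more regions the density was highest in Zbtb7a, a transcriptional repressor gene, with 5 regions in 6.996 kb of deep sequence. Kdm6b, a histone H3 lysine demethylase gene, had 5 in 7.004 kb, and the tight junction gene Tjp3 had 5 in 8.333 kb. Cyp26b1, which breaks down retinoic acid, held 5 with median folds of 17.9 and 14.4, and Rarg, a receptor of retinoic acid, held 5 with 16.6 and 11.8. Deep regions were often near one another. Of all 3676, 30.4% had another within 5 kb and 17.0% within 2 kb.

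Deep regions that were away from inner starts were denser toward the 3′ end of the gene. Among regions in a single gene of known strand, density in 5 successive equal parts of the span was 2.56, 3.18, 4.44, 4.33 and 5.06 per Mb for those away from starts. For those at inner starts it was 1.17, 1.04, 1.02, 0.549 and 0.224 per Mb. Median folds of the former stayed between 8.62 and 9.26 in replicate 1 over these parts of the span.

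Most genes with a deep region also had a shared region at an end. Of the 2190 genes 1540 (70.3%, exact interval 68.4% to 72.2%) had one within 1 kb of an end, against 58.1% of the 11253 genes without a deep region and 60.1% of all. The gap differed with the length of the gene. Under 30 kb of span the shares were 74.2% and 53.5%, and at 120 kb or more they were 65.3% and 65.3%. Genes with a region at an inner start had one at a span end in 47.0% of 460 cases (exact interval 42.3% to 51.6%). Genes whose deep regions all lay away from listed starts had one in 77.2% of 1646 cases (75.1% to 79.2%). The first was also the lower in each class of length, at 45.7% against 73.2% in genes of 120 kb or more. Of the 502 regions at inner starts, 247 lay in genes with no listed start at a span end. Whether this bears on the difference was not tested.

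A deep region was usually weaker than the strongest region at an end of the same gene. This held in both replicates for 78.6% of the 2721 regions whose gene had one (exact interval 77.0% to 80.1%), and the median ratio of the folds was 0.544 in replicate 1 and 0.384 in replicate 2. Away from starts the share was 82.9%. At inner starts the deep region was weaker in both replicates in 36.7% of 237 cases and stronger in both in 43.0%, with median ratios of 1.05 and 1.02.

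Shares of genes with a deep region were read for each gene list beside the background of 16.3% and beside gene length. Among all coding genes the share was 9.46% from 10 to 30 kb of span, 15.3% from 30 to 60 kb, 23.3% from 60 to 120 kb and 30.2% from 120 to 250 kb. Density fell with span over the same classes, at 16.6, 8.81, 6.42 and 4.13 regions per Mb. It was 1.39 per Mb in genes over 250 kb, so the density of a list is to be read beside its span. In the list of chromatin regulators 36 of 80 genes held one, at 15.4 regions per Mb against 4.70 over all genes, with a median span of 72.0 kb. Its strongest region was in Smarcd3, a muscle subunit of the SWI/SNF remodeller, with folds of 28.7 and 27.5. Brd3, a reader of acetylated histones, had 27.5 and 24.004 at an inner start. Dnmt3a, given above, and the histone deacetylase gene Hdac4, with 21.3 and 27.7 at an inner start, came next.

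In the list of myogenic and mesodermal transcription factors 25 of 44 genes held a deep region, at 12.7 per Mb. Their median span was 130 kb. Runx3 had folds of 21.5 and 22.1 at an inner start and Tbx15, a T-box factor of muscle and skeleton, had 23.0 and 20.1. Pax3, which specifies muscle progenitors, had 19.5 and 20.9 on chromosome 1 (78189528 to 78189963), at 7440 bp from a gene end. The nearest listed start, 11526 bp away, was that of another gene, Gm33152, so nearer starts of Pax3 may be missing from the list. Hdac4, which binds MEF2 factors, stood in both lists.

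Of 51 sarcomere and excitation-contraction genes 13 (25.5%, exact interval 14.3% to 39.6%) held a deep region, at 3.26 per Mb. Their median span was 56.0 kb. Jph2, which joins the sarcoplasmic reticulum to the T-tubule, had 16.0 and 18.6, and Ldb3, a Z-disc gene, had 14.9 and 16.7. Tpm1, a tropomyosin gene, had 10.03 and 26.5, and Tpm3 had 9.68 and 10.6 at an inner start. With a distance of more than 10 kb from gene ends the count of this list was 8.

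Autophagy and insulin signalling are known to set the balance of protein breakdown and synthesis in muscle. Of 73 autophagy, lysosome and mTORC1 genes 18 held a deep region, at 8.40 per Mb. Their median span was 46.0 kb, and all coding genes of 30 to 60 kb held 8.81 per Mb. The share of genes was 24.7% (exact interval 15.3% to 36.1%), against 15.3% in that class. The density of the list pools genes of all lengths, so the class of its median span is only a rough guide. Prr5, a subunit of mTOR complex 2, had 26.8 and 24.3 at an inner start. Sesn1, a stress sensor upstream of mTORC1, had 21.8 and 19.5, also at an inner start. Atg4c, a protease that processes LC3 proteins, had 14.7 and 17.4 at an inner start. Tfeb, which switches on genes of the lysosome, had 15.6 and 12.1. Of 42 insulin, FOXO and atrophy genes, with a median span of 80.3 kb, 13 held one. Pik3r1, a regulatory subunit of phosphatidylinositol 3-kinase, had 17.2 and 17.4, Akt2 had 12.1 and 11.8, Irs1 had 16.6 and 11.1 and Igf1r had 14.7 and 11.0.

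Of 67 cytoskeleton and adhesion genes, with a median span of 114 kb, 25 held a deep region, at 7.22 per Mb. Ank1, which encodes an ankyrin with small muscle forms, had 21.4 and 25.4 on chromosome 8 (23058200 to 23059006). The listed starts nearest to the Ank1 region and the widest Plec region were 475830 and 787631 bp away, outside both genes. Neither gene has a start listed, so whether these regions lie at an inner start cannot be read. Dst and Plec are given above, and Ablim1, an actin-binding gene, had 16.6 and 17.1 at an inner start. Of 60 long genes of neurons 18 held one, at 0.452 per Mb over a median span of 1098 kb. Tenm3, a teneurin adhesion gene, had 23.0 and 22.0, and its relative Tenm4 had 15.01 and 12.5 at an inner start. The lipoprotein receptor gene Lrp1b had 12.5 and 13.8.

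The density of deep regions differed between chromosomes, from 1.56 per Mb on the X chromosome to 10.1 on chromosome 15 and 8.37 on chromosome 11. On chromosome 15 the local background was above the lowest level at 36.3% of the 311 deep regions in replicate 1 and 31.5% in replicate 2, against 16.0% and 12.8% over the other chromosomes together. Among these, chromosome 10 had 32.3% and 21.5% with a density of 4.68 per Mb, and chromosome 11 had 14.6% and 12.7%. The part of the background in the density was not tested. Of the first 15 regions Cacnb3, Csnk1e and Zfp385a lie on chromosome 15. Cacnb3 and Zfp385a had the lowest background of each list, 2.13 and 1.64 fragments, and Csnk1e had 2.13 and 2.17.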

How the data were processed

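The submitters' processing notes name BWA, MACS2 and the genome build mm10. For versions, settings and the control of the peak calls, nothing is given in the sources used here. Each Deaf1 ChIP replicate has its own peak list deposited by the authors, with 65606 and 26503 peaks. The fold enrichment (a ratio), the −log10 p and −log10 q and the score of each peak are the authors' deposited values. Positions are 1-based. The lists give no read depth. Summit pileup and local background were solved from fold and p under a Poisson model (largest misfit 4.07e-05 in −log10 p). In 951 peaks simulated under the same model 100% of pileups were recovered, which checks the solving and not the model. Intervals are exact (Clopper-Pearson or Poisson, 95%) and cover counting error only.

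Gene spans (21631 protein-coding) and 300-base windows at listed starts came from RefSeq tables of GRCm38.p6. Every biotype other than protein-coding counted as noncoding. Deep sequence, 782 Mb, is all sequence where a position would meet the rule. The 106 deep regions on chromosome 18 were left out of comparisons with starts, which are not analysed here for that chromosome. Genes without a listed start on other chromosomes were kept, so their regions count as away from starts whether or not a start exists there. Listed starts gave a strand for 79.5% of all genes with deep sequence. The planned motif counts at the regions themselves were not run without a genome sequence, and start windows were used in their place.

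No test across regions was made. Named regions and genes were the first 15 by rank sum, the 5 farthest from gene ends, the 3 widest, the 10 genes with most regions (of which 1 is not reported here), the 5 densest, 4 per gene list, 2 on each side of 5 kb, and genes of the internal promoter list. The regions, rules and gene lists were chosen with earlier results of these data known. Analyses used Python 3.11.15 with pandas 2.3.3 and SciPy 1.17.1.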

Additional observations from a re-analysis of the deposited data

Results flagged for a closer look

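Peaks deep inside genes that were found in a single list were singled out because they are signal outside the shared regions described above. Of the 19301 deep regions of replicate 1, 19.1% had a partner and 15618 did not. These had a median fold of 5.11 (quartiles 4.47 and 6.07, highest 15.01), and 2.21% of them lay within 1 kb of an annotated start. Replicate 2 had 584 of 4477, with a median fold of 4.39. Neither list has an input list beside it here.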

How the results depend on the processing

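No paired analysis was possible because the numbers shared by input and ChIP samples join no 2 peak lists. Leaving out pseudogene ends, chromosome 15, and all values for listed starts are settings chosen after seeing the data. The share of shared regions lying deep inside genes was 14.6% with a −log10 q of 5 or more, 13.7% with a fold of 5 or more, 14.03% with replicate 1 shortened to the length of replicate 2, 26.4% beyond 2 kb, 9.65% beyond 10 kb and 19.97% with coding gene ends only, and 16.9% to 29.4% with a single replicate. The median fold in replicate 1 was 10.5, 10.9 and 10.9 in the first 3 of these and 5.43 without replicate 2; in replicate 2 it was 6.98, 7.59 and 7.21, and 5.69 without replicate 1. Hosts with a region at an end were 67.5%, 65.7% and 67.8% in the first 3, 68.1% beyond 2 kb, 59.3% with a 500 bp window, 76.3% with a 2 kb window, and 70.4% to 81.7% with a single replicate. Regions weaker than the end of their gene were 76.6%, 74.6% and 75.01% in the first 3 and 85.7% to 90.8% with a single replicate. Requiring 50% overlap and leaving out pseudogene ends or chromosome 15 gave shares of 16.0%, 16.5% and 15.7%. The share at listed starts ran from 4.47% (replicate 1 alone) to 18.1% (fold of 5 or more). Of the gene lists, sarcomere genes alone moved by over 1.5 times in the 3 settings tried, from 13 to 8 beyond 10 kb. In each case the cause was not tested. The lowest summit pileup among the deep regions was 10 fragments in replicate 1 and 8 in replicate 2.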
